A study of Homo sapiens with 27 samples.

Results

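SUM44 LTED-B is an estrogen-independent variant of the SUM44 line of invasive lobular breast carcinoma, and its transcriptome was compared here with that of its parental line, SUM44F. The members are the 3 LTED-B libraries and the 3 SUM44F libraries of the deposited count table, 6 of 27 libraries in the series, taken over all genes that passed a filter on low counts (26834 genes). The 3 libraries of the independently derived variant LTED-A and the 3 of SUM44PE, the line from which SUM44F was made, served only to show where LTED-B differed. SUM44PE is an estrogen receptor-positive line grown from a pleural effusion, which lacks functional E-cadherin and carries an amplified FGFR1. SUM44F is SUM44PE kept for months in a serum-rich mixed medium, in which its response to estradiol is stronger. SUM44F and SUM44PE cells were deprived of hormone for 3 days in charcoal-stripped serum, which holds little steroid, before RNA was taken. LTED-B and LTED-A (LTED, long-term estrogen-deprived) had lived in charcoal-stripped serum for many months. Every group was therefore without estradiol when collected, and length of deprivation, basal medium, time in culture and outgrowth from the parental population change together between the groups and cannot be told apart. The libraries of a group are wells of the same culture, so the p-values measure the spread between wells of 1 variant and not between independent derivations.

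The estrogen receptor is a nuclear receptor that binds estradiol, attaches to DNA at estrogen response elements and turns on genes for growth and secretion. Aromatase inhibitors starve tumours of estradiol, and cell lines grown without it for months are a common model of the resistance that follows. In such cells the receptor may stay active without ligand, other growth factor receptors may take over, and lipid and amino acid metabolism may be rewired. Dividing cells are told apart by genes of DNA replication, many of which are controlled by E2F factors, and genes of mitosis, many of which carry a short cell cycle element called CHR.

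Depth was 34591553, 42580213 and 97697516 counts in LTED-B replicates 1, 2 and 3 and 44487388, 49294696 and 76250461 counts in SUM44F. A gene with at most 3 counts in every library of a group was treated as below detection, which is 0.0905 CPM (counts-per-million units) in the smallest LTED-B library. Levels are CPM after scaling for library composition. Differences are log2 fold changes ± SE of LTED-B against SUM44F, with adjusted p from edgeR's quasi-likelihood test over all genes, and a gene was called where the change exceeded 1.5-fold at an adjusted p below 0.001. The SE was worked back from the F statistic of that test and is no separate estimate of error. A gene that was not called is not thereby shown to be unchanged. The luminal markers summed to 6143 to 6479 CPM in LTED-B and 6489 to 7528 CPM in SUM44F, whereas the immune markers summed to 3.69 to 4.43 CPM and 3.02 to 12.6 CPM. Libraries of SUM44F were not alike. SUM44F replicate 1 alone held fibroblast-type transcripts, with 10 markers summing to 375 CPM against 9.68 and 8.69 CPM in the other SUM44F libraries and 7.39 to 9.37 CPM in LTED-B. COL3A1, the chain of fibrillar collagen type III, was at 135.1, 0.703 and 0.470 CPM in SUM44F and at 0.0603, 0.0248 and 0.0219 CPM in LTED-B. In all, 70 genes were higher in SUM44F replicate 1 than in both others by over 2 on the log2(CPM + 0.5) scale. They summed to 1189, 69.4 and 69.0 CPM in SUM44F, and 1 was called higher and 0 lower in LTED-B (58 at an unadjusted p below 0.05). PAEP, not a listed fibroblast marker, was at 46.9, 0.234 and 0.235 CPM in SUM44F. A further 59 genes were higher in SUM44F replicates 1 and 2 than in replicate 3 by over 1.5 on the log2(CPM + 0.5) scale, and summed to 1924, 1973 and 346 CPM in SUM44F and 914 to 1012 CPM in LTED-B. DPPA4, one of them, was at 62.9, 66.0 and 1.91 CPM in SUM44F, 2.99, 1.51 and 1.60 CPM in LTED-B and 53.1 and 1.61 CPM in the LTED-A samples. None of these 59 genes was called in LTED-B by edgeR (25 at an unadjusted p below 0.05, 0 called by DESeq2). In SUM44F replicate 3, in turn, 15 genes were higher than in both others by over 2 on that scale and summed to 778 CPM against 85.2 and 27.5 CPM. The cause was not tested, and a count of list members is given also without SUM44F replicate 1, or with replicate 3 as the only SUM44F library, where it moves by over 1.5 times. Other alternatives moved such counts too, as the closing section gives.

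LTED-B differed from SUM44F at 4632 of 26834 genes. Of these, 2333 were higher (8.69% of genes tested) and 2299 were lower (8.57%). These shares are the background for every count of list members against SUM44F below. They cover genes at any level, and the share called among genes at the level of the list members was not taken. The median change over all genes was -0.09. Without SUM44F replicate 1 there were 2180 higher and 2043 lower genes. With SUM44F replicate 3 as the only parental library, in a fit that also left out LTED-A replicate 1, there were 3684 higher and 2377 lower genes, so the share of higher calls moved from 50.4% to 60.8%. In that fit the spread comes from the LTED-B libraries only, and the lone parental sample is assumed to vary like them. The thresholds moved the split the other way, to 974 higher and 1690 lower genes (36.6% higher) with a minimum of 2-fold and to 3146 higher and 4749 lower genes (39.8%) at an adjusted p below 0.05.

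The largest rise was that of TAT, tyrosine aminotransferase, a liver enzyme of amino acid breakdown that glucocorticoids induce. TAT was at 1510.0, 1483 and 1480.3 CPM in LTED-B and 0.653, 0.820 and 3.26 CPM in SUM44F (log2 fold change 9.74 ± 0.50, adjusted p = 1.2e-07). All LTED-B libraries lay within a narrow band far above every SUM44F library. MYBPC1, a myosin-binding protein of slow muscle, was at 39.1, 38.5 and 36.3 CPM in LTED-B and 0.0653, 0.215 and 0.235 CPM in SUM44F (log2 fold change 7.67 ± 0.23, adjusted p = 2.3e-09). BMPR1B, a type I receptor for bone morphogenetic proteins, was at 71.1, 69.6 and 65.7 CPM in LTED-B and 0.370, 0.468 and 0.717 CPM in SUM44F (log2 fold change 6.96 ± 0.17, adjusted p = 6.7e-10). Both were near the detection limit or below 1 CPM in the SUM44F libraries. Secreted factors were among the largest rises, the gut hormone PYY (15.1 against 0.401 CPM on average, log2 fold change 5.26) and the stress cytokine GDF15 (8.30 against 0.242 CPM, 5.08). The cell surface proteins STEAP1 and FOLH1, the latter the prostate-specific membrane antigen, rose from 0.418 to 13.3 CPM and from 0.480 to 8.98 CPM. THRB, a thyroid hormone receptor, rose from 3.03 to 88.6 CPM. The remaining members of the 12 largest rises were TFF1, described with the estrogen receptor targets, P2RY10 (4.22), BEND7 (4.19) and GP2, the main glycoprotein of pancreatic secretory granules (4.14).

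The largest falls, chosen by the same rule, ended at or near the detection limit in LTED-B. A falling gene could meet the level rule only through SUM44F, so clear expression there was required. CCDC178 and KCTD12 were below detection in every LTED-B library, which makes CCDC178 at least 357-fold and KCTD12 at least 64.3-fold lower. ANXA1, annexin A1, was also below detection and at least 259-fold lower. PCDH7, a protocadherin of cell contacts, was at 0.181, 0.173 and 0.317 CPM in LTED-B and 105, 109 and 91.3 CPM in SUM44F (log2 fold change -8.66 ± 0.17, adjusted p = 1.7e-10). DMP1, a phosphoprotein of bone and dentine matrix, was at 0.332, 0.124 and 0.241 CPM in LTED-B and 90.5, 92.6 and 89.0 CPM in SUM44F (log2 fold change -8.61 ± 0.20, adjusted p = 4.9e-10). SYT1, the calcium sensor of vesicle release, was at 0.603, 0.694 and 0.733 CPM in LTED-B and 181, 192 and 186 CPM in SUM44F (log2 fold change -8.07 ± 0.10, adjusted p = 1.9e-11). In each of these 3 genes libraries of a group lay close together. PTPRO, a receptor tyrosine phosphatase, fell from 83.7 to 0.260 CPM, and SDC2, a heparan sulfate proteoglycan of the cell surface, from 86.9 to 0.443 CPM. The others were CPA6 (-9.72), GUCY1A2, a subunit of soluble guanylate cyclase (-8.44), the neural adhesion molecule CHL1 (-8.35) and LRRC4C (-7.61).

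**Figure D1:**
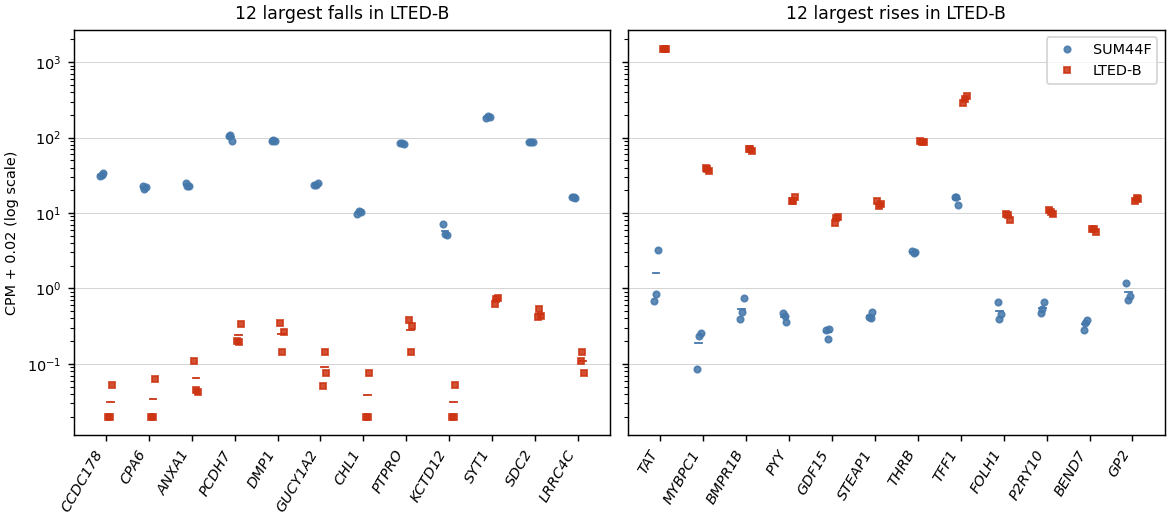
CPM + 0.02 on a log axis for the 12 protein-coding genes with the largest falls (left) and rises (right) in LTED-B. Each point is a library, with circles for SUM44F, squares for LTED-B and a short line at the group mean, and the groups do not overlap in any of the 24 genes, as the rule for choosing them required.

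Hormone receptor genes were examined next. ESR1, the gene of estrogen receptor alpha, was at 1383, 1369 and 1324 CPM in LTED-B and 576, 599.9 and 540.4 CPM in SUM44F (log2 fold change 1.25 ± 0.10, adjusted p = 2.8e-06). Every LTED-B library was above every SUM44F library. Of 24 nuclear receptors tested, 6 were called higher, among them THRB and the mineralocorticoid receptor NR3C2 (1.17), and 1 lower, against 8.69% and 8.57% of all genes. PGR, the progesterone receptor and a classical estrogen receptor target, was at 0.271, 0.0248 and 0.0875 CPM in LTED-B and 9.58, 1.33 and 1.53 CPM in SUM44F and was not called (log2 fold change -5.15 ± 0.95, adjusted p = 0.0012). Its level in SUM44F replicate 1 was far above that in the other parental libraries, and that library also held the fibroblast-type transcripts. Without SUM44F replicate 1 PGR was called lower (log2 fold change -3.64, adjusted p = 0.00024).

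Targets of the estrogen receptor split. Of 30 listed targets, 10 were called higher and 5 lower, with a median of 0.22 against -0.09 over all genes. Taken against SUM44PE in place of SUM44F, the median of the list was -0.17, against -0.06 over all genes. TFF1, a secreted trefoil peptide and a textbook estrogen-induced gene, was at 288, 327 and 351 CPM in LTED-B and 16.2, 16.4 and 12.8 CPM in SUM44F (log2 fold change 4.42 ± 0.14, adjusted p = 3.0e-09). STC2, a secreted glycoprotein, was at 413, 439 and 429.6 CPM in LTED-B and 77.2, 77.4 and 66.7 CPM in SUM44F (log2 fold change 2.53 ± 0.09, adjusted p = 9.5e-09), and CA12, a carbonic anhydrase of the cell surface, at 1215, 1273 and 1248 CPM in LTED-B and 296, 306 and 262 CPM in SUM44F (log2 fold change 2.11 ± 0.10, adjusted p = 6.3e-08). The ranges of the groups were far apart in each. CCND1, cyclin D1, was at 1429, 1487 and 1511 CPM in LTED-B and 490.2, 503 and 419 CPM in SUM44F (log2 fold change 1.65 ± 0.11, adjusted p = 8.1e-07). IGFBP4, which binds insulin-like growth factors, rose from 38.9 to 122 CPM, the transcription factor MYB from 50.5 to 113 CPM and the secretory regulator XBP1 from 306 to 654 CPM. In the other direction, AGR3, a disulfide isomerase related to the tumour antigen AGR2, was at 0.543, 0.545 and 0.514 CPM in LTED-B and 7.99, 7.63 and 7.63 CPM in SUM44F (log2 fold change -3.86 ± 0.16, adjusted p = 3.2e-08). SLC7A2, a transporter of cationic amino acids, fell from 85 to 9.38 CPM and SUSD3 from 3.12 to 0.539 CPM. AGR2 itself was called higher (1.80). GREB1, a receptor cofactor, was at 57.6, 61.1 and 61.5 CPM in LTED-B and 47.9, 46.3 and 40.9 CPM in SUM44F and WNT4 at 6.00, 6.00 and 5.88 CPM in LTED-B and 10.7, 10.3 and 7.85 CPM in SUM44F, and neither was called (log2 fold change 0.42 ± 0.08, adjusted p = 0.0012 and log2 fold change -0.69 ± 0.13, adjusted p = 0.0015). GREB1, FOXA1 and FGFR1 were called higher with SUM44F replicate 3 as the only parental library (0.60, 0.61 and 0.61), where PGR was called lower (-3.72).

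**Figure D2:**
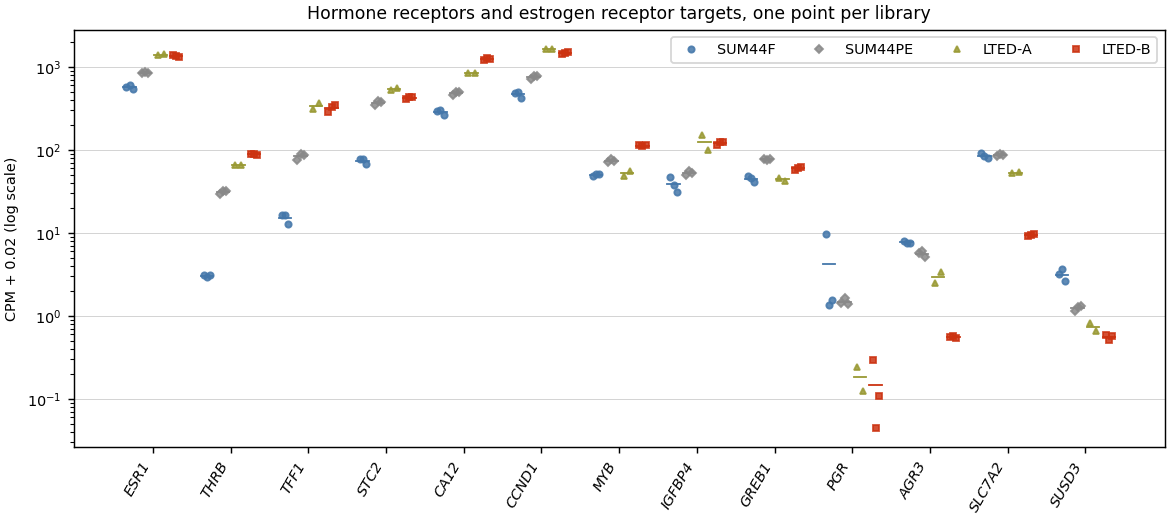
CPM + 0.02 on a log axis for hormone receptors and listed estrogen receptor targets in SUM44F, SUM44PE, LTED-A and LTED-B, one point per library with a short line at the group mean. LTED-A replicates 2 and 3 are 1 averaged sample. TFF1, STC2, CA12 and CCND1 lie above SUM44F in every LTED-B library, whereas AGR3, SLC7A2 and SUSD3 lie below it.

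Factors of luminal identity came next. Of 20 luminal transcription factors, 4 were called higher and 1 lower. The number called higher was 2 without SUM44F replicate 1 and 8 with replicate 3 alone. GATA3 was at 373, 392 and 387 CPM in LTED-B and 202, 237 and 199.8 CPM in SUM44F and was called higher (log2 fold change 0.85 ± 0.15, adjusted p = 0.00079), although not when any 1 of the 6 libraries was left out. FOXA1, which opens chromatin for the estrogen receptor, was at 539, 562 and 596 CPM in LTED-B and 434, 447 and 383 CPM in SUM44F and was not called (log2 fold change 0.42 ± 0.09, adjusted p = 0.0037). ELF3, an epithelial ETS factor, fell from 142 to 61.7 CPM. Among 10 luminal epithelial markers, 2 were higher and 2 lower, and without SUM44F replicate 1 1 was higher and 1 lower. With replicate 3 alone 3 were higher and 1 lower.

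Genes of the dividing cell rose as a group. Of 36 genes of DNA replication and nucleotide synthesis, 32 were called higher and 0 lower, with a median of 1.00. Of 35 mitotic genes, 33 were called higher and 0 lower, with a median of 1.22. Without SUM44F replicate 1 the counts of higher genes were 31 and 32. CDT1, which loads the replicative helicase, was at 39.9, 46.3 and 44.1 CPM in LTED-B and 17.2, 17.9 and 15.3 CPM in SUM44F (log2 fold change 1.37 ± 0.09, adjusted p = 7.3e-07). GINS3, a subunit of that helicase's scaffold, was at 56.1, 58.5 and 54.2 CPM in LTED-B and 13.2, 13.6 and 12.8 CPM in SUM44F (log2 fold change 2.09 ± 0.09, adjusted p = 3.1e-08). BIRC5, survivin, a subunit of the chromosomal passenger complex, was at 113, 115 and 122 CPM in LTED-B and 30.02, 29.4 and 28.55 CPM in SUM44F (log2 fold change 1.998 ± 0.09, adjusted p = 6.3e-08). Every LTED-B library was above every SUM44F library in these genes. In bulk RNA a larger share of dividing cells and more of these transcripts per cell cannot be told apart. ORC1, of the origin recognition complex, rose from 10.8 to 26.9 CPM, MYBL2, a mitotic transcription factor, from 47.6 to 151 CPM and NUF2, a kinetochore protein, from 29.1 to 83.8 CPM. E2F1 rose from 36.9 to 76.4 CPM (log2 fold change 1.05 ± 0.08, adjusted p = 3.1e-06).

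The promoters of these genes were searched for short motifs in RefSeq sequence (GRCh38.p14), from 250 bases before to 50 after each gene's start. Of 32 replication genes called higher, 29 were in the promoter table, and 15 of those (51.7%) held TTTGGCGC, TTTCGCGC or TTTCCCGC, the E2F letters, on either strand, against 582 of 14308 promoters of tested genes (4.07%). Of 33 mitotic genes called higher, 27 were in the table, and 17 (63.0%) held TTTGAA or TTCGAA, the CHR letters, against 1805 of 14308 (12.6%). The sites of 1 promoter can overlap, and a match is a description of the letters only. List members that were not called higher were not searched, so these shares describe the lists and cannot be tied to the rise. Shown here are 90-base stretches before the starts of 2 replication genes and 2 mitotic genes, chosen after their sites were seen, with the motif in capitals. MCM6, a helicase subunit, rose from 91.9 to 176 CPM, CCNB2, cyclin B2, from 39.7 to 103 CPM and PLK1, polo-like kinase 1, from 18.3 to 43.96 CPM. The stretches are chr16:88803699-88803788, chr2:135876514-135876603, chr15:59105056-59105145 and chr16:23678799-23678888, each written in the direction of the gene.
CDT1: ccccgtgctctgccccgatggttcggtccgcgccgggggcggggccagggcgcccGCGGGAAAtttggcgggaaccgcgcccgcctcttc
MCM6: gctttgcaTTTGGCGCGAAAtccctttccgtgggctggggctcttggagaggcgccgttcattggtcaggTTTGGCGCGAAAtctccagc
CCNB2: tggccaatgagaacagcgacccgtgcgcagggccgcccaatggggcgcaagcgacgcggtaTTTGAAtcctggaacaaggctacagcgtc
PLK1: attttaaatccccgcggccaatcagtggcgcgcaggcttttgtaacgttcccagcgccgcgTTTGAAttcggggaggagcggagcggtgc

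None of the 6 promoters in the table among the 10 estrogen receptor targets called higher held GGTCA, any 3 bases, then TGACC, the full estrogen response element, which 6 of 14308 promoters held (0.0419%). So rare a match was not to be expected among 6 promoters, and partial or more distant elements were not searched. Nothing about estrogen response elements of these genes follows from its absence.

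Regulators of entry into the cycle were mixed. Of 28 G1 cyclins, kinases and inhibitors, 14 were called higher and 4 lower. CDKN1A, p21, an inhibitor of cyclin-dependent kinases and a p53 target, was at 12.2, 12.96 and 12.5 CPM in LTED-B and 87.2, 85.6 and 67.4 CPM in SUM44F (log2 fold change -2.67 ± 0.11, adjusted p = 2.5e-08). The inhibitor CDKN2B fell from 14.6 to 5.60 CPM and the kinase CDK6 from 67.8 to 25.3 CPM. CCNE1, cyclin E1, rose from 4.57 to 9.87 CPM, and CDKN2D, another inhibitor, from 2.52 to 5.71 CPM. Of 27 genes of DNA damage and repair, 14 were called higher, led by the recombination factor RAD54L (1.27), FANCI (1.16) and the helicase BLM (1.16). The 3 called lower, GADD45A (-2.30), SESN1 (-1.53) and BBC3 (-0.79), are known as p53-induced genes of growth arrest and cell death rather than as repair enzymes. Targets of p53 were not examined as a list, and its activity was not tested. MYC was at 3.62, 3.57 and 3.65 CPM in LTED-B and 3.27, 2.69 and 2.23 CPM in SUM44F and was not called (log2 fold change 0.41 ± 0.15, adjusted p = 0.047). Of 20 immediate early and AP-1 genes, 2 were higher (EGR3 and JUND, neither called without SUM44F replicate 1) and 4 lower, among them FOS (-2.21), EGR1 (-2.43) and the phosphatase DUSP2 (-1.27). With SUM44F replicate 3 alone 4 were higher.

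Genes of the integrated stress response and of amino acid supply were called higher more often than lower. This response is switched on by protein folding stress or amino acid shortage and acts through the transcription factor ATF4, while the unfolded protein response raises chaperones of the endoplasmic reticulum. Of 28 such genes, 14 were called higher and 2 lower, with a median of 0.66. ASNS, asparagine synthetase, was at 100.4, 99.0 and 93.3 CPM in LTED-B and 33.2, 34.2 and 31.5 CPM in SUM44F (log2 fold change 1.57 ± 0.07, adjusted p = 4.5e-08). PHGDH, the first enzyme of serine synthesis, was at 191, 213 and 199 CPM in LTED-B and 68.6, 70.1 and 52.8 CPM in SUM44F (log2 fold change 1.66 ± 0.11, adjusted p = 7.2e-07), and CHAC1, which breaks down glutathione, at 8.30, 8.60 and 9.13 CPM in LTED-B and 2.77, 2.42 and 2.61 CPM in SUM44F (log2 fold change 1.74 ± 0.11, adjusted p = 5.9e-07). ATF4 rose from 205 to 468 CPM and the chaperone HSPA5 from 126 to 266 CPM. PPP1R15A, which ends the response by restoring translation, fell from 17.4 to 6.63 CPM and HERPUD1, a factor of protein degradation, from 98.3 to 59.6 CPM.

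Of 16 amino acid transporters, 7 were called higher and 2 lower, with a median of 0.62. SLC7A11, the cystine importer that feeds glutathione synthesis, was at 101, 92.1 and 92.9 CPM in LTED-B and 8.45, 7.67 and 9.15 CPM in SUM44F (log2 fold change 3.497 ± 0.09, adjusted p = 6.7e-10). SLC1A4, a carrier of alanine, serine and cysteine, was at 516, 547 and 539.7 CPM in LTED-B and 117, 121 and 102 CPM in SUM44F (log2 fold change 2.24 ± 0.09, adjusted p = 2.4e-08). Neither gene's groups overlapped. SLC43A1, a carrier of large neutral amino acids, rose from 0.946 to 3.87 CPM, while SLC6A14, a broad concentrative carrier, fell from 3.01 to 0.193 CPM. Of 14 stress response genes called higher 13 were in the promoter table, and 2 of them, ASNS and CHAC1, held TGATG, any base, then AA, the letters of the amino acid response element (15.4% against 297 of 14308, or 2.08%). This motif was chosen after values were seen. List members that were not called higher were not searched, so the share cannot be tied to the rise. The stretch of ASNS, at chr7:97872428-97872517, has the motif in capitals.
ASNS: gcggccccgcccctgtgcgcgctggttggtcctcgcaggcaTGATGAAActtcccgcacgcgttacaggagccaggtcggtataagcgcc

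Interferon-stimulated and antigen presentation genes were called lower more often than higher. Interferons act through factors such as STAT2 and IRF9 on antiviral genes that carry an interferon-stimulated response element. Of 32 such genes tested, 15 were called lower and 1 higher, with a median of -0.84. OAS1, a sensor of double-stranded RNA, was at 29.8, 32.7 and 31.4 CPM in LTED-B and 371, 385 and 323 CPM in SUM44F (log2 fold change -3.52 ± 0.09, adjusted p = 1.1e-09). CXCL10, a chemokine for T cells, was at 0.543, 0.471 and 0.438 CPM in LTED-B and 14.3, 15.0 and 14.8 CPM in SUM44F (log2 fold change -4.95 ± 0.16, adjusted p = 3.7e-09). IFI44 was below detection in LTED-B, at least 12.8-fold under its SUM44F mean of 1.16 CPM. Each of these fell in every LTED-B library below every parental library. The exception was HERC5, the ligase that attaches ISG15 to proteins, at 8.57, 7.81 and 8.15 CPM in LTED-B and 0.828, 0.820 and 1.16 CPM in SUM44F (log2 fold change 3.10 ± 0.17, adjusted p = 1.8e-07). IRF9 fell from 24.1 to 5.40 CPM. Among the other members ISG15 (-0.45), MX1 (0.46) and OAS3 (-0.32) were not called. With SUM44F replicate 3 alone 2 of the list were higher.

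Of 15 interferon-stimulated genes called lower, 11 were in the promoter table, and 8 (72.7%) held GAAA, any 2 bases, then GAAA on either strand, the core of the response element, against 412 of 14308 promoters (2.88%). This motif, too, was chosen after values were seen. Interferon-stimulated genes are known for carrying this element, and list members that were not called lower were not searched. The share therefore describes the list and cannot be tied to the fall. The stretches of CXCL10 (chr4:76023658-76023747), IFI44 (chr1:78649699-78649788) and IFIT1 (chr10:89392473-89392562) show it in capitals, in IFIT1 as 2 sites separated by 3 bases. IFIT1, which binds viral RNA, fell from 4.49 to 0.996 CPM.
CXCL10: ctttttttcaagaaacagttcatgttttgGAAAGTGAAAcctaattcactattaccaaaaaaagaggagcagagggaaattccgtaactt
IFI44: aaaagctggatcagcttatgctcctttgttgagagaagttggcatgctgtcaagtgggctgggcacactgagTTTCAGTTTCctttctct
IFIT1: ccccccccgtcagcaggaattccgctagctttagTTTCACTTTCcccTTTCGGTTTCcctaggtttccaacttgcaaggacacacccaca

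Of 12 MHC class II genes, 8 were called lower and 0 higher. CD74, the invariant chain, was at 4.01, 4.46 and 4.25 CPM in LTED-B and 44.1, 38 and 29.9 CPM in SUM44F (log2 fold change -3.14 ± 0.14, adjusted p = 5.4e-08). CIITA, the master regulator of class II, fell from 10.2 to 4.90 CPM. HLA-DRB1 and HLA-DPA1 were also called lower (-4.16 and -2.91), and were highest in SUM44F replicate 1. Without that library 6 class II genes were called lower. Of 15 MHC class I genes, 6 were called lower and 1 (CALR, a chaperone) higher. B2M, the light chain, was at 141, 138 and 139 CPM in LTED-B and 361, 332 and 349 CPM in SUM44F (log2 fold change -1.32 ± 0.10, adjusted p = 2.7e-06), and HLA-F fell from 7.25 to 1.80 CPM. The HLA genes share reads among near-identical copies, and their separate values are uncertain. None of 4 immune cell markers tested was called by edgeR (3 at an unadjusted p below 0.05, 0 called by DESeq2), and 5 of 10 listed were below detection in LTED-B. The part of immune cells in these falls was not tested.

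Epithelial surface and skeleton genes were likewise called lower more often than higher. Of 23 annexins and S100 proteins, calcium-binding proteins of the membrane and cytosol, 14 were called lower and 1 (S100P) higher, with a median of -0.91. S100A7, psoriasin, was at 5.25, 5.55 and 5.69 CPM in LTED-B and 258, 248 and 204 CPM in SUM44F (log2 fold change -5.42 ± 0.11, adjusted p = 2.3e-10). S100A10, the partner of annexin A2, was at 3.86, 4.56 and 4.03 CPM in LTED-B and 132, 136 and 117 CPM in SUM44F (log2 fold change -4.95 ± 0.10, adjusted p = 2.3e-10). Both were far under every SUM44F library. S100P rose from 2.19 to 8.38 CPM. Of 13 keratins, 7 were called lower and 0 higher, with a median of -1.05. KRT7 was at 37.5, 39.7 and 41.2 CPM in LTED-B and 329.9, 341 and 246 CPM in SUM44F (log2 fold change -2.95 ± 0.12, adjusted p = 2.8e-08) and KRT8, the main type II keratin of luminal cells, at 1236, 1346 and 1419 CPM in LTED-B and 2955, 2936 and 2395 CPM in SUM44F (log2 fold change -1.05 ± 0.14, adjusted p = 0.00012). KRT8 lost its call without any 1 of the LTED-B libraries or SUM44F replicate 2. KRT80 fell from 77.0 to 23.0 CPM. KRT20 had no count in any LTED-B library and was at least 12.3-fold lower. Several keratins have close paralogs and pseudogenes, and reads may have been shared among them.

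Of 30 matrix and integrin genes, 12 were called lower and 1 (ITGB5) higher, with a median of -1.499. ITGB6, an epithelial integrin that activates latent TGF-beta, was at 6.70, 7.11 and 6.72 CPM in LTED-B and 173, 174 and 177 CPM in SUM44F (log2 fold change -4.67 ± 0.09, adjusted p = 1.7e-10). LAMB3, a laminin chain of the epithelial basement membrane, was at 6.46, 6.54 and 6.24 CPM in LTED-B and 77.0, 69.2 and 57.0 CPM in SUM44F (log2 fold change -3.40 ± 0.11, adjusted p = 5.7e-09). ITGB6 was alike in all SUM44F libraries and LAMB3 was highest in replicate 1. The fibrillar collagens were also highest in SUM44F replicate 1 and were not called. COL1A1 was at 6.82, 7.83 and 6.04 CPM in LTED-B and 86.2, 7.10 and 5.80 CPM in SUM44F (log2 fold change -2.26 ± 0.85, adjusted p = 0.052). Without SUM44F replicate 1, 14 of the list were called lower. ITGB5 rose from 64.6 to 144 CPM, and with SUM44F replicate 3 alone 2 of the list were higher.

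Of 18 cadherin and junction genes, 2 were called higher and 3 lower, against 8.69% and 8.57% of all genes. The higher ones were CLDN3 (0.81) and OCLN (0.62), and the lower ones DSG2 (-2.36), CDH3 (-0.96) and CDH1. With SUM44F replicate 3 alone 4 were higher. CDH1, E-cadherin, whose loss defines lobular carcinoma, was at 13.8, 15.5 and 15.0 CPM in LTED-B and 24.7, 22.3 and 21.3 CPM in SUM44F (log2 fold change -0.63 ± 0.09, adjusted p = 0.00028), and was not called without SUM44F replicate 1 or 2, without any 1 of the LTED-B libraries or with SUM44F replicate 3 alone. Of 15 mesenchymal genes, 5 were called lower and 1 (ITGA5, from 5.59 to 25.0 CPM) higher, and 3 were higher without SUM44F replicate 1 and 3 with replicate 3 alone. VIM, vimentin, was at 0.483, 0.173 and 0.142 CPM in LTED-B and 31.3, 7.61 and 7.58 CPM in SUM44F (log2 fold change -6.04 ± 0.71, adjusted p = 5.7e-05). TGFB2 was at 0.121, 0.0743 and 0.0657 CPM in LTED-B and 4.79, 4.78 and 4.65 CPM in SUM44F (log2 fold change -5.85 ± 0.30, adjusted p = 1.1e-07), and ZEB1, a repressor of epithelial genes, at 0.302, 0.496 and 0.339 CPM in LTED-B and 4.73, 1.70 and 1.53 CPM in SUM44F (log2 fold change -2.80 ± 0.45, adjusted p = 0.00049). VIM and ZEB1 were highest in SUM44F replicate 1, and both were called without it, but ZEB1 lost its call when any 1 of the LTED-B libraries was left out.

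**Figure D3:**
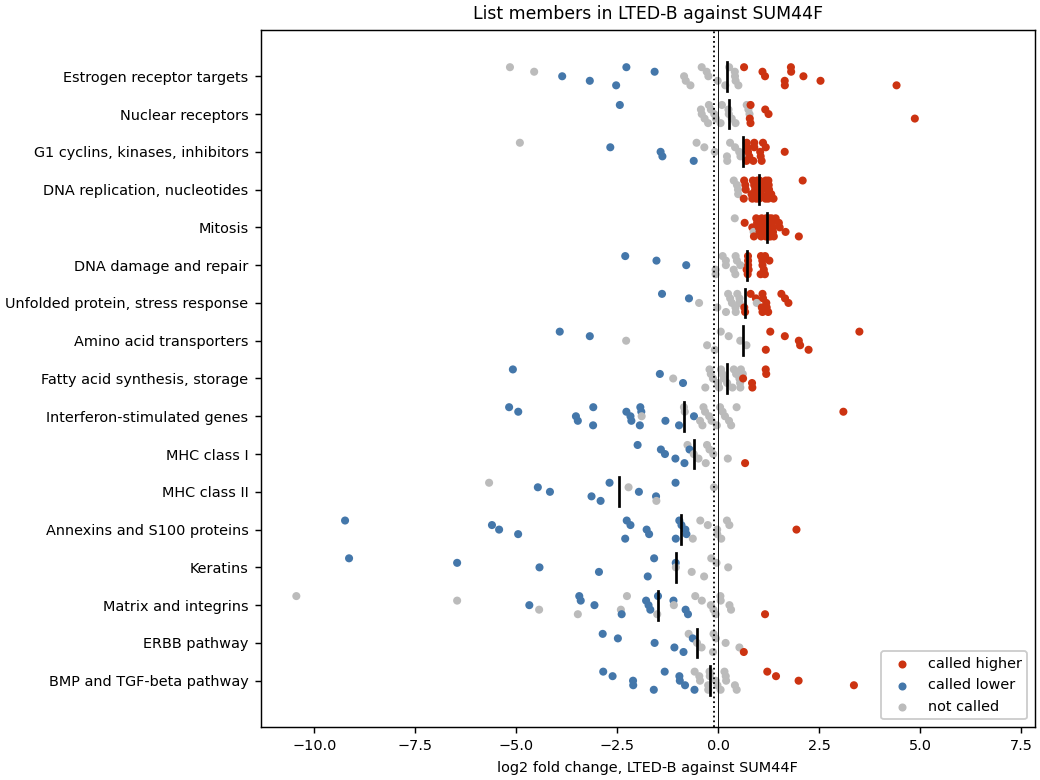
Log2 fold change of every tested member of 17 gene lists in LTED-B against SUM44F, with called genes in red (higher) or blue (lower), a black bar at the list median and a dotted line at the median of all genes tested (-0.09). Replication and mitosis genes lie to the right as a group, with medians of 1.00 and 1.22, while interferon, MHC, annexin, keratin and matrix genes spread to the left.

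Growth factor signalling genes changed at receptors, ligands and feedback regulators. In the FGF pathway 6 of 22 genes were called higher and 7 lower. FGFR1 was at 579, 613 and 614 CPM in LTED-B and 452, 473 and 407 CPM in SUM44F and was not called (log2 fold change 0.44 ± 0.09, adjusted p = 0.002). FGFR3 was at 28.4, 29.98 and 32.0 CPM in LTED-B and 5.38, 5.25 and 4.17 CPM in SUM44F (log2 fold change 2.62 ± 0.12, adjusted p = 5.5e-08). The phosphatases of the MAP kinase feedback moved apart, with DUSP4 rising from 78.3 to 245 CPM and DUSP6 falling from 57.2 to 15.8 CPM. ETV4 was higher (1.39), while its relative ETV1 (-3.20) and the ligand FGF1 (-1.76) were lower. Without SUM44F replicate 1 the count of lower FGF pathway genes was 3. In the ERBB pathway 1 of 15 genes was called higher, the ligand TGFA (0.64), and 6 lower, among them the ligands HBEGF (-2.86), EGF (-2.48) and AREG (-1.57). ERBB2 was at 114, 128 and 121 CPM in LTED-B and 181, 181 and 159 CPM in SUM44F, a change smaller than 1.5-fold (log2 fold change -0.52 ± 0.08, adjusted p = 0.00028).

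In the IGF pathway 1 of 15 genes was called higher, IGFBP4, and 4 lower, and 2 were higher with SUM44F replicate 3 alone. IRS1, the adaptor that couples the insulin-like growth factor receptor to PI3 kinase, was at 1.57, 1.59 and 1.66 CPM in LTED-B and 48.4, 45.5 and 41.0 CPM in SUM44F (log2 fold change -4.80 ± 0.12, adjusted p = 6.2e-10). No LTED-B library came near a parental one. IGF1R, the receptor, was at 162, 170.2 and 151 CPM in LTED-B and 133, 128 and 132 CPM in SUM44F and was not called (log2 fold change 0.30 ± 0.16, adjusted p = 0.16). The adaptor GRB10 fell from 60.8 to 25.7 CPM. The growth factor IGF2 was at 0.664, 0.793 and 0.646 CPM in LTED-B and 21.1, 5.33 and 3.89 CPM in SUM44F (log2 fold change -3.85 ± 0.61, adjusted p = 0.00044) and was highest in SUM44F replicate 1, and it lost its call without any 1 of the LTED-B libraries.

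In the BMP and TGF-beta pathway 6 of 31 genes were called higher and 10 lower. Next to BMPR1B, BAMBI, a decoy receptor, was at 82.2, 84.2 and 83.0 CPM in LTED-B and 8.69, 7.47 and 8.11 CPM in SUM44F (log2 fold change 3.36 ± 0.08, adjusted p = 7.2e-10). The ligand BMP5 fell from 12.3 to 1.71 CPM, and the receptors TGFBR3 and TGFBR2 fell from 17.8 to 2.93 CPM and from 3.29 to 0.769 CPM. In the WNT pathway 4 of 23 genes were higher and 4 lower. The ligand WNT11 was at 1.21, 1.12 and 1.499 CPM in LTED-B and 34.4, 39.2 and 32.0 CPM in SUM44F (log2 fold change -4.75 ± 0.15, adjusted p = 3.7e-09). LEF1, a transcription factor of the pathway, was at 7.48, 7.76 and 7.91 CPM in LTED-B and 1.02, 0.429 and 0.269 CPM in SUM44F (log2 fold change 3.83 ± 0.36, adjusted p = 1.2e-05). The receptors FZD7 and FZD8 moved apart (-1.86 and 1.57), PRICKLE1 fell (-1.22) and the feedback inhibitor NKD1 rose (1.13). In the Notch pathway 3 of 14 genes were higher (5 with SUM44F replicate 3 alone) and 3 lower. The ligands DLL1 and JAG2 rose (1.13 and 0.88) while JAG1 and DLL4 fell (-2.56 and -1.35), the target HES1 rose from 8.81 to 33.2 CPM and the coactivator MAML2 was below detection, at least 31.5-fold lower.

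In the 8p11 and 11q13 amplicons, regions often gained in lobular carcinoma, 6 of 21 genes were called higher and 1 lower, against 11 and 2 with SUM44F replicate 3 alone. EIF4EBP1, a repressor of cap-dependent translation on 8p11, was at 802, 837 and 881 CPM in LTED-B and 208, 217 and 176 CPM in SUM44F (log2 fold change 2.07 ± 0.10, adjusted p = 1.1e-07). TACC1, also on 8p11, was at 6.79, 6.62 and 6.55 CPM in LTED-B and 310.0, 324 and 297 CPM in SUM44F (log2 fold change -5.54 ± 0.08, adjusted p = 4.8e-11). These 2 genes of the same amplicon lay on opposite sides of the SUM44F level in every LTED-B library. ANO1, a chloride channel on 11q13, rose from 1.83 to 8.25 CPM.

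Several genes of lipid synthesis were higher. Of 27 genes of fatty acid synthesis and storage, 5 were called higher and 3 lower, and 9 were higher with SUM44F replicate 3 alone. FASN, fatty acid synthase, was at 830.4, 896 and 879 CPM in LTED-B and 389, 416 and 336 CPM in SUM44F (log2 fold change 1.19 ± 0.12, adjusted p = 2.3e-05), SCD, stearoyl-CoA desaturase, at 634, 652 and 664 CPM in LTED-B and 299, 314 and 249.5 CPM in SUM44F (log2 fold change 1.18 ± 0.10, adjusted p = 6.9e-06) and SREBF1, their transcription factor, at 241, 251 and 273 CPM in LTED-B and 152, 154 and 120.1 CPM in SUM44F (log2 fold change 0.85 ± 0.10, adjusted p = 6.9e-05). No LTED-B library overlapped with SUM44F in these. THRSP, a lipogenic protein that responds to thyroid hormone, was at 1.30, 1.21 and 1.59 CPM in LTED-B and 51.5, 50.7 and 39.8 CPM in SUM44F (log2 fold change -5.08 ± 0.18, adjusted p = 9.9e-09), opposite to the rise of the receptor THRB. ACSL4 (-1.44) and LPIN1 (-0.87) were also lower. Of 25 cholesterol genes, 6 were called higher, led by DHCR7 (1.19), SQLE (0.99) and EBP (0.91), and 2 lower, STARD4 (-1.04) and TM7SF2 (-0.88). With SUM44F replicate 3 alone 13 were called higher. The sterol factor SREBF2 (0.51) was not called, except with SUM44F replicate 3 as the only parental library (0.79). Of 18 LXR targets and sterol export genes, 2 were higher and 5 lower, against 8.69% and 8.57% of all genes. NR1H3 (0.80) and SOAT1 (0.82) were higher, and MYLIP (-1.75), APOD (-1.69) and SMPDL3A (-0.95) were among those lower. ABCA1, the cholesterol exporter, was at 1.75, 1.91 and 1.83 CPM in LTED-B and 10.98, 3.12 and 2.86 CPM in SUM44F and was not called (log2 fold change -1.61 ± 0.45, adjusted p = 0.014).

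Of 25 genes of fatty acid oxidation and ketone metabolism, 4 were higher and 4 lower, against 8.69% and 8.57% of all genes. HADH (0.85) and SLC25A20 (0.60) were among those higher, and the coactivator PPARGC1A (-1.73), ACADS (-1.08) and BDH2 (-0.94) lower. Of 28 genes of glycolysis and hypoxia, 3 were higher and 4 lower, against the same shares of all genes. HK2 (0.95), ALDOC (0.95) and HIF1A (0.77) were higher, and EGLN3 (-2.45), NDRG1 (-1.44) and SLC2A3 (-0.92) were among those lower. The number of higher glycolysis and hypoxia genes was 5 without SUM44F replicate 1 and 12 with replicate 3 alone. Of 21 genes of steroid synthesis and inactivation, 4 were higher and 4 lower. SULT1E1, which inactivates estrogens by sulfation, was at 0.181, 0.149 and 0.109 CPM in LTED-B and 4.36, 3.67 and 4.25 CPM in SUM44F (log2 fold change -4.88 ± 0.25, adjusted p = 1.1e-07), and HSD17B2, which oxidizes estradiol to estrone, at 2.65, 3.05 and 2.67 CPM in LTED-B and 9.43, 8.33 and 8.70 CPM in SUM44F (log2 fold change -1.66 ± 0.16, adjusted p = 1.2e-05). AKR1C3, which reduces ketosteroids, was at 14.7, 16.97 and 16.4 CPM in LTED-B and 6.08, 5.60 and 4.90 CPM in SUM44F (log2 fold change 1.54 ± 0.11, adjusted p = 1.9e-06). Both inactivating enzymes lay below and the reductase above the SUM44F libraries. In SUM44PE, however, AKR1C3 was above LTED-B, as given further on. CYP1B1 (0.78) and SRD5A3 (0.67) were higher and SULT1A1 (-0.80) lower.

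Of 22 aldo-keto reductases and NRF2 targets, 5 were higher, among them SRXN1 (0.88), and 5 lower, among them HMOX1 (-2.14), AKR1B1 (-2.22) and AKR1B10 (-1.75). The aldo-keto reductases are near-identical in sequence, and reads may have been split among them. Of 24 apoptosis genes, 6 were higher, among them the BH3-only genes HRK (1.79) and PMAIP1 (1.23), and 6 lower, among them BIRC3 (-1.59), CFLAR (-1.53) and BIK (-1.05). BCL2 was at 73.6, 71.1 and 67.1 CPM in LTED-B and 91.9, 96.6 and 94.4 CPM in SUM44F and was not called (log2 fold change -0.42 ± 0.06, adjusted p = 0.0003). Of 21 DNA and histone methylation genes, 4 were higher, led by UHRF1 (1.21), DNMT3B (0.96) and EZH2 (0.75), and 2 lower, TET2 (-0.71) and EZH1 (-0.60), neither of which was called with SUM44F replicate 3 alone, where 1 other gene of the list was called lower. None of 13 mitochondrial transcripts and none of 10 retinoid and vitamin D response genes was called by edgeR, with medians of -0.16 and -1.27, and 0 and 7 of them had an unadjusted p below 0.05. DESeq2 called 0 and 1 of them. Of markers of other cell types, 2 of 6 endothelial (VWF and PECAM1), 2 of 7 basal (KRT17 and TP63) and 1 of 5 adipocyte markers (PLIN4) were called lower, and no fibroblast marker of 6 was called by edgeR (6 at an unadjusted p below 0.05, 0 called by DESeq2). In the fit without SUM44F replicate 1, 1 fibroblast and 0 adipocyte markers were called lower, and with replicate 3 alone 1 fibroblast marker was lower, 2 mitochondrial transcripts were higher and 1 retinoid and vitamin D response gene was higher. The summed level ranged over 27.5 to 48.6 CPM in SUM44F and 4.81 to 5.73 CPM in LTED-B for the endothelial list, 13.6 to 15.8 and 10.9 to 11.4 CPM for the basal list and 7.07 to 7.71 and 4.52 to 5.35 CPM for the adipocyte list.

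LTED-B was also compared directly with LTED-A in the same fit. It differed at 1990 genes, of which 1036 were higher (3.86% of genes tested) and 954 lower (3.56%) in LTED-B. LTED-A entered as 2 samples, because its replicates 2 and 3 differed by less than the sampling noise and were averaged. S100A9, a subunit of calprotectin, was at 73.3, 77.0 and 71.2 CPM in LTED-B, 0.447 and 0.836 CPM in LTED-A and 275, 247 and 234 CPM in SUM44F (LTED-B against LTED-A, log2 6.70, adjusted p = 1.2e-08). It was below the parental level in both variants, and much less so in LTED-B. TAT was at 26.6 and 23.7 CPM in LTED-A, above SUM44F but far below LTED-B (5.89, adjusted p = 1.2e-05). MYBPC1 was at 0.620 and 0.765 CPM in LTED-A (5.73). TRIM55, a muscle ubiquitin ligase, was at 13.5, 14.2 and 14.4 CPM in LTED-B, 0.347 and 0.343 CPM in LTED-A and 2.51, 2.40 and 2.31 CPM in SUM44F, so that LTED-B lay above and LTED-A below the parental line. PLPPR3 had the same order, with means of 11.6, 0.305 and 1.39 CPM. The sixth gene above LTED-A, ENSG00000258465, has no gene symbol in the annotation used.

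Below LTED-A, SYT1 was at 76.6 and 80.6 CPM in LTED-A and so kept part of the parental level that LTED-B had lost (-6.82, adjusted p = 1.1e-10). NPY1R and NPY5R, neighbouring receptors for neuropeptide Y, were at 113, 109 and 120 CPM and 1.81, 1.51 and 1.89 CPM in LTED-B. They were at 3092 and 4147 CPM and 49.2 and 62.3 CPM in LTED-A. In SUM44F they were at 483, 505 and 524 CPM and 7.45, 7.94 and 7.95 CPM. Both receptors thus lay under the parental level in LTED-B and above it in LTED-A, and the pancreatic peptidase CPB1 had the same order, with means of 1.90, 67.0 and 7.25 CPM in LTED-B, LTED-A and SUM44F. UBD, a ubiquitin-like protein induced by interferon, was at 0.271, 9.18 and 20.49 CPM, and the histone gene H3C11 at 0.443, 28.1 and 13.4 CPM. H3C11 has near-identical copies, and its reads may have been shared.

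**Figure D4:**
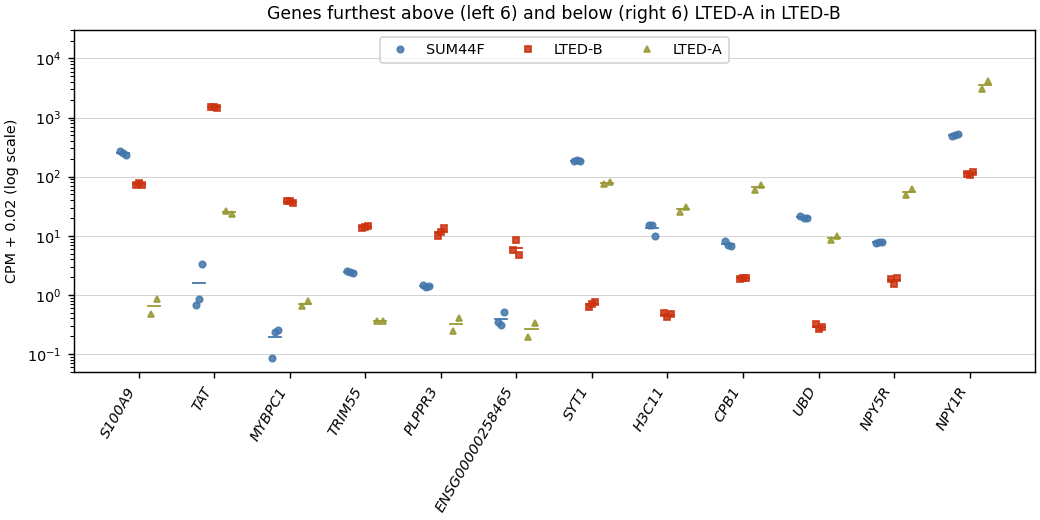
CPM + 0.02 on a log axis in SUM44F, LTED-B and LTED-A for the 6 protein-coding genes furthest above LTED-A (left) and the 6 furthest below it (right) in LTED-B, one point per library or averaged sample with a short line at the mean. TRIM55 and PLPPR3 lie above SUM44F in LTED-B and below it in LTED-A, and NPY1R, NPY5R and CPB1 the reverse.

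The lists were then read between the variants, against 3.86% of all genes called higher and 3.56% called lower in LTED-B than in LTED-A. LTED-B was called higher than LTED-A at 1 and lower at 2 of 36 replication genes, and higher at 1 and lower at 1 of 35 mitotic genes, shares near those of all genes. The mitotic gene that was higher was BIRC5, at 48.7 and 63.2 CPM in LTED-A (1.06). Among 30 estrogen receptor targets 3 were higher and 4 lower than in LTED-A. Some other lists differed more, and not all are given. LTED-B was higher than LTED-A at 0 and lower at 5 of 16 amino acid transporters, and at 4 and 6 of 23 annexins and S100 proteins. Against SUM44F, LTED-A itself was called higher at 31 of the replication and 31 of the mitotic genes. It was lower at 14 and higher at 1 of 32 interferon-stimulated genes. Of 28 stress response genes LTED-A was higher at 11 and lower at 4. ESR1 differed from LTED-A by -0.05 ± 0.11 and TFF1 by -0.07 ± 0.13, and neither was called. FGFR3, at 4.96 and 5.66 CPM in LTED-A, was higher in LTED-B (2.50), and so was AKR1C3, at 3.42 and 3.33 CPM (2.25). FGFR1 was called higher in LTED-B than in LTED-A (0.67), although neither variant was called against SUM44F. SREBF2 was called lower in LTED-B than in LTED-A (-1.08).

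Genes were next read in their order along the chromosomes. In windows of 40 neighbouring genes that averaged 5 CPM or more, the median log2 fold change of LTED-B against SUM44F ranged from -0.87 to 1.12 around a middle value of 0.16 over 560 windows. Runs of windows beyond 0.5 gave 5 stretches, on chromosomes 6 and 17 alone at this setting (coordinates on hg38). They were chosen by the LTED-B changes, which the counts of called genes in them reuse, also those against LTED-A. Over all genes tested, at any level, 8.69% were called higher and 8.57% lower against SUM44F, and 3.86% and 3.56% against LTED-A. The share called among the scanned genes alone was not taken. On chromosome 6, 80 genes from 87513459 to 125302078 were shifted down, with a median of -0.63, 40 called lower and 6 called higher. The next 80 genes, from 125781161 to 157323601, were shifted up, with a median of 0.91, 50 called higher and 7 called lower. A lowered and a raised stretch lay next to each other on the long arm. The raised stretch holds ESR1, MYB and ENPP1, an ectonucleotidase that was at 747, 718 and 706 CPM in LTED-B and 99.6, 106 and 105 CPM in SUM44F (log2 fold change 2.81 ± 0.09, adjusted p = 3.0e-09). The lowered stretch holds SESN1 and the gap junction gene GJA1, at 1.27, 1.34 and 1.36 CPM in LTED-B and 18.4, 8.43 and 7.69 CPM in SUM44F (log2 fold change -3.11 ± 0.33, adjusted p = 2.7e-05). In LTED-A the medians against SUM44F over the same genes were 0.00 and -0.12, and LTED-B was called lower than LTED-A at 39 genes of the lowered and higher at 53 genes of the raised stretch. ESR1 was an exception, as its level in LTED-A (1379 and 1429.6 CPM) was close to that in LTED-B.

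On chromosome 17, 160 genes from 64854130 to 82442645 were shifted up, with a median of 0.66, 83 called higher and 1 called lower. A further 40 genes from 50373220 to 59206709 were shifted up with a median of 0.63, 22 called higher and 1 called lower. The medians of LTED-A over these genes were 0.09 and 0.12, and LTED-B was called higher than LTED-A at 47 and 16 of them. The longer stretch holds BIRC5, FASN, the nucleoside kinase TK1 (25.5 to 60.1 CPM) and NHERF1, a scaffold of membrane transporters, which was at 212, 234 and 254 CPM in LTED-B and 59.4, 59.2 and 46.3 CPM in SUM44F (log2 fold change 2.09 ± 0.11, adjusted p = 1.5e-07). The shorter one holds EME1, a subunit of a DNA junction nuclease, which rose from 6.07 to 20.53 CPM. BIRC5 was higher in LTED-B than in LTED-A, whereas FASN (0.34) and TK1 (0.21) were not called.

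The remaining stretch, 60 genes on chromosome 6 from 25279078 to 27893185, is the main cluster of histone genes. Its median was 1.10 in LTED-B and 0.66 in LTED-A, with 39 genes called higher and 5 lower in LTED-B against SUM44F, and 1 gene called higher than in LTED-A. Its leading gene was SCGN, secretagogin, a calcium-binding protein of endocrine cells, at 20.6, 22.6 and 20.03 CPM in LTED-B and 5.03, 5.09 and 5.36 CPM in SUM44F (log2 fold change 2.03 ± 0.10, adjusted p = 1.1e-07). DNA copy number was not measured, and its part in these shifts was not tested.

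**Figure D5:**
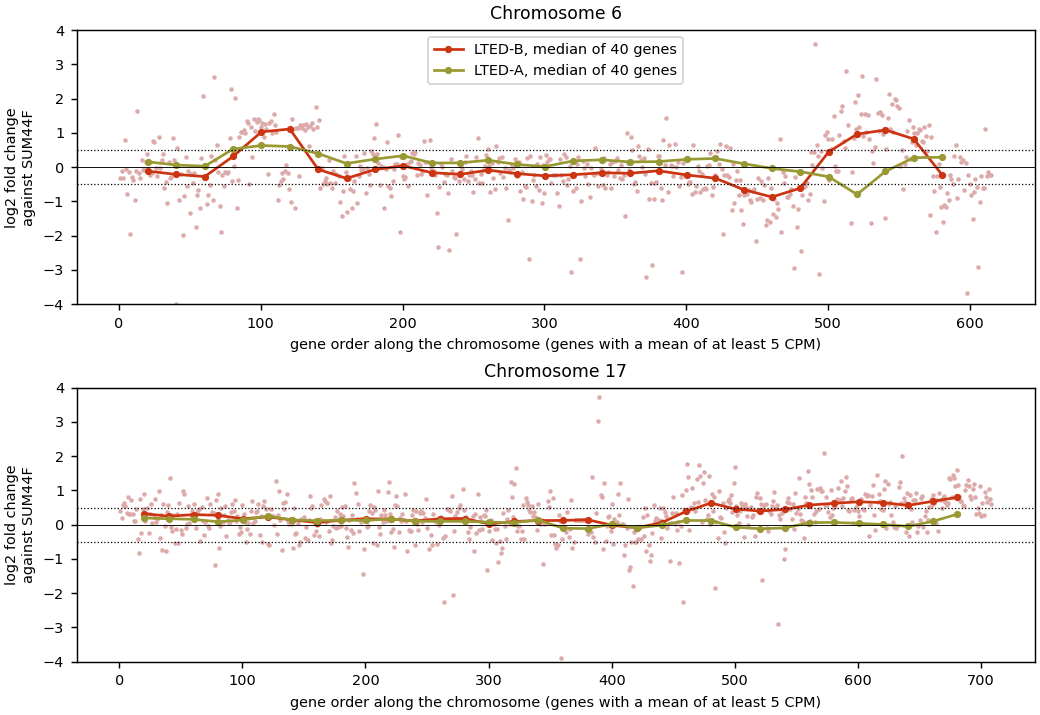
Log2 fold change against SUM44F in gene order along chromosomes 6 and 17 for genes that averaged 5 CPM or more (615 and 708 genes). Pale points are genes in LTED-B (5 and 3 genes beyond ±4 are not shown), lines are medians of 40 genes moved by 20 genes for LTED-B (red) and LTED-A (olive), and dotted lines mark ±0.5. The red line leaves the band at the histone cluster, drops and then rises on the long arm of chromosome 6, and lies mostly above the upper dotted line over the end of chromosome 17, where the olive line lies between the dotted lines.

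SUM44PE showed how far the choice of parental line matters. In libraries scaled together with SUM44PE, TFF1 was at 75.9, 89.4 and 86.3 CPM in SUM44PE, between SUM44F and LTED-B, so that its rise was 4.42 against SUM44F and 1.96 against SUM44PE on the log2 scale. STC2 was at 346, 384 and 381 CPM (0.22 against SUM44PE). For both, the parental lines were further apart than the libraries within either. PTPRO was at 3.00, 3.21 and 2.90 CPM in SUM44PE and THRSP at 3.94, 4.20 and 4.15 CPM, far below SUM44F, and their falls against SUM44PE were -3.49 and -1.53. AKR1C3 was at 25.9, 28.61 and 28.0 CPM, above LTED-B, so its change against SUM44PE was -0.76, opposite to that against SUM44F. TAT, at 11.1, 10.9 and 12.6 CPM, IRS1, at 50.8, 53.5 and 51.4 CPM, SYT1, at 169, 192 and 180.5 CPM, and TACC1, at 298, 309 and 313 CPM, kept changes of 7.04, -4.98, -8.00 and -5.51 against SUM44PE. ESR1 was at 849.8, 862 and 855 CPM in SUM44PE, and LTED-B exceeded it by 0.69 ± 0.08.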

How the data were processed

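RNA-seq counts of 27 libraries were used as deposited. Per the labels and the study's methods, stranded total RNA libraries were sequenced on a HiSeq instrument and the authors quantified them with Salmon version 0.6.0 on hg38 with Ensembl release 82, giving estimated counts per gene. Trimming and the strand setting are not given in the sources used here. Estimated counts were rounded. Of 60619 gene identifiers, 56434 were matched to GENCODE symbols and positions.

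SUM44F, LTED-A and LTED-B libraries were fitted together with edgeR 4.0.16 (filterByExpr, TMM factors, glmQLFit and glmQLFTest) in R 4.3.3, with Benjamini-Hochberg adjustment over 26834 genes. Genes with a change above 1.5-fold and an adjusted p below 0.001 were called, as in the study's own analysis, which used DESeq2. LTED-A replicates 2 and 3 agreed within sampling noise (chi-square per degree of freedom 0.312, against 6.10 to 58.3 for other pairs of a SUM44 group) and were averaged. LTED-B was compared with LTED-A in the same fit and with SUM44PE in a fit of all 4 groups, whose CPM are scaled separately. The fit was tested on simulated counts at these libraries' depths.

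The gene lists, members and tests were chosen with earlier results of these data known. Named are the 12 largest rises and the 12 largest falls among called protein-coding genes without overlap between groups. A mean of at least 5 CPM in LTED-B or SUM44F was required, so a gene could enter through 1 group alone. The 6 genes furthest above and the 6 furthest below LTED-A came from protein-coding genes called against both SUM44F and LTED-A, at the same level. Also named are up to 3 genes in each direction per list (mean of at least 1 CPM in either group), 24 key genes and the leading gene of each stretch. MYB, AGR2, ATF4, HSPA5, IRF9, ISG15, MX1, OAS3, COL1A1, COL3A1, DPPA4, MCM6, CCNB2, PLK1, IFIT1, KRT17 and TK1 were named after their values were seen. Some genes that this rule selects are not reported here. For a group below detection, the fold is a lower bound against 3 counts in its smallest library. Alternatives (DESeq2 1.42.0, other scaling, filters, thresholds, thinning, a replicate block and leaving out each library) are given in the closing section. Promoters came from RefSeq (GRCh38.p14). Counts and bounds cover sampling of reads only.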

Additional observations from a re-analysis of the deposited data

Results flagged for a closer look

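The 12 genes furthest from LTED-A were drawn from genes called against both SUM44F and LTED-A (edgeR quasi-likelihood test, adjusted p below 0.001). That they differed between the variants was therefore fixed by the rule and is no further support. The log2 differences of LTED-B minus LTED-A were 6.70 for S100A9, 5.89 for TAT, 5.73 for MYBPC1, 5.34 for TRIM55, 5.14 for PLPPR3 and 4.56 for ENSG00000258465. They were -6.82 for SYT1, -5.98 for H3C11, -5.13 for CPB1, -5.09 for UBD, -4.99 for NPY5R and -4.99 for NPY1R. Relative to SUM44F, the variants were called in opposite directions at TRIM55, PLPPR3, H3C11, CPB1, NPY5R and NPY1R. LTED-A replicates 1 and 2 differed more from each other (chi-square per degree of freedom 58.3) than any pair of LTED-B libraries (6.10 to 10.6), and the spread of LTED-A rests on 2 samples. The part of that spread in these differences was not tested.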

How the results depend on the processing

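Depth, 3 wells per group and the uneven SUM44F libraries limit these results, and genes near the 1.5-fold or 0.001 threshold moved across it most readily. The number of genes called in LTED-B against SUM44F was 4632, and it was 2664 with a minimum of 2-fold and 7895 at an adjusted p below 0.05. Of these, the genes called higher numbered 974 with a minimum of 2-fold and 3684 with SUM44F replicate 3 as the only parental library, an alternative chosen after seeing the data that also left out LTED-A replicate 1 and takes its spread from LTED-B alone, and those called lower numbered 4749 at an adjusted p below 0.05. Leaving out each library in turn gave 3262 to 4223 genes, 1696 to 2180 higher and 1566 to 2048 lower. DESeq2 called 5294 genes, of which 4516 were among the 4632. Of 84 counts of list members called higher or lower, 31 moved with a minimum of 2-fold. Without LTED-B replicate 1, 2 or 3, 14, 15 and 15 of these counts moved, and without SUM44F replicate 1, 2 or 3, 9, 10 and 8. The count in LTED-B against LTED-A, 1990, was 1190 with a minimum of 2-fold and 3881 at an adjusted p below 0.05. It was 1104 to 1806 with each library left out, and it fell by over 1.5 times without LTED-A replicate 1 (1165) or without LTED-B replicate 1, 2 or 3 (1155, 1109 and 1104). The cause was not tested. The replicate numbers did not pair the samples (correlations of same-numbered libraries -0.0023, -0.12 and 0.15), and no LTED-B library correlated best with its own number except the third. With the replicate block 4249 genes were called against SUM44F and 1360 against LTED-A. Of 227 genes examined singly, none changed direction under any alternative run, and 25 of the 214 called lost their call without 1 library, 17 of them without any 1 of the LTED-B libraries, among them ACSL4, AKR1B1, AREG, CALR, CDH1, EGR3, EZH1, FGF1, GATA3, IGF2, KRT8, NKD1, PLIN4, SLC25A20, TGFBR2 and ZEB1. Those that lost it without some LTED-B libraries were AKR1B10, CITED1, DLL4, HLA-DRB1, JUND, SLC2A3, SMPDL3A and VWF. The 5 stretches became 8 with genes from 1 CPM, 19 with windows of 20 genes and 10 at a shift of 0.4, and these met 4, 5 and 5 of them in the same direction. Of the new stretches 2, 8 and 5 lay on other chromosomes.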

Other observations

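Several genes outside the lists changed strongly, and were chosen after their values were seen. ODC1, ornithine decarboxylase, the first enzyme of polyamine synthesis, was at 942, 961 and 934 CPM in LTED-B and 79.6, 70.3 and 77.9 CPM in SUM44F (log2 fold change 3.64 ± 0.11, adjusted p = 2.1e-09), and at 144 and 176 CPM in LTED-A. SERPINA3, a secreted inhibitor of proteases, rose from 8.06 to 101 CPM, ALB, serum albumin, from 35.6 to 329.6 CPM and ANKRD30A, a breast differentiation antigen, from 26.0 to 299 CPM. HEBP2, a heme-binding protein on chromosome 6, rose from 74.5 to 448 CPM and was at 87.0 CPM in LTED-A. Secreted proteins that fell included PIP, the prolactin-induced protein (199.6 to 6.00 CPM), SCGB2A2, mammaglobin (199.9 to 1.65 CPM), LCN2, lipocalin 2 (84.1 to 2.67 CPM), and CLU, clusterin (2822 to 529.9 CPM). FOXI1, the transcription factor of acid-secreting epithelial cells, fell from 278 to 24.9 CPM, and the proton pump subunits ATP6V0A4 and ATP6V1B1 fell from 132 to 1.23 CPM and from 116 to 4.94 CPM. ATP1B1, a subunit of the sodium pump, fell from 552 to 26.2 CPM. REPS2, an endocytic adaptor, fell from 504 to 21.6 CPM in LTED-B and was at 617 CPM in LTED-A.

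Replication-dependent histone genes took 1.27% to 1.36% of counts in LTED-B and 0.531% to 0.703% in SUM44F. Of 58 such genes tested, 49 were called higher and 3 lower, with a median log2 fold change of 1.19. Their copies are near-identical and their transcripts carry no poly(A) tail. Ribosomal protein genes took 5.30% to 5.45% of counts in LTED-B and 3.73% to 4.08% in SUM44F, and 20 of 83 were called higher (median 0.59). Transcripts of the mitochondrial genome took 1.58% to 1.86% and 1.77% to 2.65%.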
